A study of Mus musculus with 2 samples.

Results

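Autophagy delivers a cell's own proteins and organelles to the lysosome inside a membrane sac, the autophagosome, and returns their building blocks to metabolism. A kinase complex around ULK1 starts the process, a lipid kinase complex around VPS34 marks the membrane, and a chain of conjugation enzymes ties small ATG8 proteins (the LC3 and GABARAP families) to its lipids. Receptors such as p62 bind cargo on one side and ATG8 proteins on the other. Pancreatic ductal adenocarcinoma (PDAC) is known for its reliance on this recycling.

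The 42 genes described here cover these steps: the ULK and VPS34 complexes, the membrane supply and conjugation proteins, the ATG8 proteins and the cargo receptors. They were taken by symbol, and all 42 were found among the 21983 entries of the deposited count table. The RNA came from 14837, a mouse PDAC cell line of C57BL/6 background, kept for 48 h in medium conditioned by cancer-associated fibroblasts (CAFs), which belong to the stroma around such tumours. A second library described in the labels came from the same cells in medium conditioned by 14837 cells themselves. The base medium for both was DMEM, with fetal bovine serum at 10% and penicillin at 100 U/ml, and the labels used here name no genotype or further agent. The column named for CAF was tied to the CAF-medium library. The other column has a name that matches neither library and was not used, so the media are not compared and every value below is a level in the CAF-medium library. A lone library gives no replicate error, and nothing was tested between groups.

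This library held 21269197 counts, and 11569 entries, 52.6% of all, had at least 10 counts. Levels are given as CPM, each gene's share of that total scaled to 1000000 counts, and, wherever genes are set against each other, as CPM per kilobase of the gene's exons, since a longer transcript collects more counts. The median entry with at least 10 counts stood at 37.9 CPM, and at 8.14 CPM per kilobase. Ranges in brackets are 95% intervals from the exact Poisson distribution, which reflect counting error alone. A counted 0 allows up to 3 counts, or 0.141 CPM, but some entries listed at 0 may not be counted zeros, as described for Atg2a. The keratins Krt7, Krt8, Krt18 and Krt19 and the epithelial cadherin Cdh1 stood at 370.0 to 1819 CPM. Of 8 ductal epithelial markers 7 reached 10 counts, and Epcam, the exception, had 2. The 9 fibroblast markers summed to 37.0 CPM, of which Pdgfra gave 34.2. Only 3 of them reached 10 counts, and Col1a2, Col3a1, Dcn and Lum were at 0. Endothelial, acinar and immune markers summed to 0.235, 0.470 and 5.78 CPM. In bulk RNA, fewer cells making a transcript and less of it per cell cannot be told apart.

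The autophagy genes were nearly all detected, with moderate levels apart from a few high ones. At least 10 counts were listed for 39 of 42, at least 1000 counts for 23, and 0 for 3 (Atg2a, Atg4a and Epg5). Together they held 109766 counts, 0.516% of the library, and Sqstm1 alone gave 34.5% of these. The 5 highest gave 59.7% and the 10 highest 74.1%. Over the 39 genes the median was 58.0 CPM, or 14.1 CPM per kilobase, 1.53 and 1.74 times the median over all entries with at least 10 counts. The CPM ratio depended on the minimum, at 1.14 with at least 100 counts and 59.7 with none. The ratio per kilobase was not computed under other minimums. Above the median level per kilobase were 25 of the 39, or 64.1%, where all entries have 50% by definition. The share at or above 100 CPM was 9 of 39, or 23.1%, against 23.7% of all entries, which is close to that background. Their middle range was narrower, with quartiles at 6.17 and 19.6 CPM per kilobase against 2.61 and 20.3 for all entries.

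**Figure D1:**
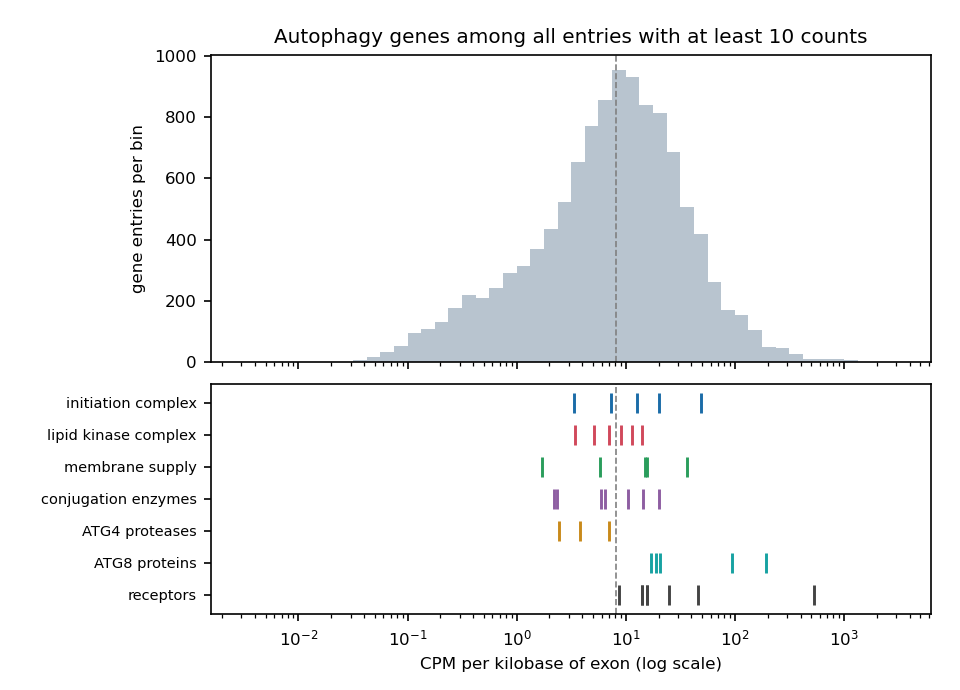
Levels of the autophagy genes against all entries with at least 10 counts. The upper panel counts entries per bin of CPM per kilobase of exon (log scale), and the lower panel marks each of the 39 autophagy genes as a line, by role. The dashed line is the median entry at 8.14. The ATG8 proteins and the receptors lie to its right, and the 3 detected ATG4 proteases to its left.

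The cargo receptors carried most of the counts. These proteins select what is enclosed: Sqstm1 (p62), Nbr1, Optn, Tax1bp1 and Calcoco1 are soluble, and Bnip3, Bnip3l (Nix) and Fundc1 sit in the outer mitochondrial membrane. All 8 point values lay above the median level per kilobase. For Bnip3, at 8.74, the interval (7.924 to 9.615) held that median of 8.14. By CPM, Bnip3 and Fundc1 lay below the median entry, at 19.8 and 36.6 against 37.9. The 8 genes summed to 50.3% of the autophagy counts, of which those other than Sqstm1 gave 15.8%. Sqstm1 (ENSMUSG00000015837, chromosome 11, 50199366 to 50210827, minus strand, mm10) had 37871 counts. This came to 1781 CPM (1763 to 1799), and its rank among all entries was 13. Per kilobase it stood at 531 CPM, above 99.7% of entries with at least 10 counts. Mrnip lies on the opposite strand and overlaps 17.3% of the exonic bases of Sqstm1. It was listed with 112 counts, and the part of this overlap in the level of Sqstm1 was not tested.

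Nbr1, which shares the ubiquitin-binding role of p62 (chromosome 11, 101552149 to 101581951, plus strand), was listed with 6650 counts, which is 313 CPM (305 to 320.3). Sqstm1 stood 11.7 times above it per kilobase (exact binomial 95% interval 11.36 to 11.97). Tax1bp1 had 5337 counts, or 251 CPM (244 to 258), and 25.1 CPM per kilobase. Optn, Calcoco1 and Fundc1 were much closer to one another, at 15.6, 14.1 and 15.5 CPM per kilobase of all exons. Per kilobase of the longest transcript they stood at 22.4, 27.3 and 18.45 CPM, so this closeness depends on the length used.

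The mitochondrial receptors Bnip3 and Bnip3l, both known as targets of hypoxia-inducible factors, were not among the high genes. Bnip3 had 421 counts, or 19.8 CPM (17.9 to 21.8), and Bnip3l 1169 counts, or 55.0 CPM (51.9 to 58.2). Per kilobase, Bnip3l stood 1.63 times above Bnip3 (1.46 to 1.83). Of the 64-base windows of their longest transcripts, 38.7% and 21% were also found in transcripts of other genes, Bnip3l-ps among them. Reads could therefore be split or dropped. Gm45507 on the opposite strand overlaps 22.25% of the exonic bases of Bnip3. The part of these shared windows and of this overlap in the ratio was not tested.

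**Figure D2:**
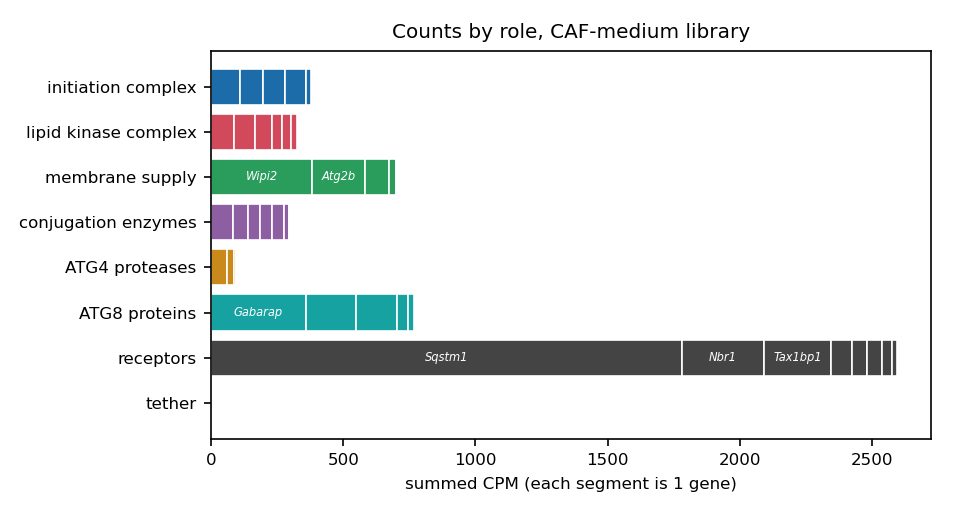
Summed CPM of the autophagy genes by role in the CAF-medium library, on a linear axis from 0. Each segment is 1 gene, and the highest are named. The receptors reach 2595 CPM, of which Sqstm1 gives 1781, and the ATG8 proteins 766 CPM.

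Among the ATG8 proteins, the small ubiquitin-like tags of the autophagosome, the GABARAP subfamily had most of the counts. All 5 genes were detected and lay above the median level per kilobase. Gabarap (chromosome 11, 69991143 to 69994951, plus strand) was listed with 7599 counts, which is 357 CPM (349 to 365), and at 194 CPM per kilobase was second to Sqstm1. Gabarapl1 (chromosome 6, 129533160 to 129542346, plus strand) followed with 4066 counts, or 191 CPM (185 to 197), and 94.97 CPM per kilobase. Map1lc3b, the LC3B protein most used as an autophagosome marker (chromosome 8, 121590361 to 121598760, plus strand), was listed with 3263 counts, which is 153 CPM (148 to 159). Per kilobase of all exons it came to 20.4 CPM, beside Gabarapl2 at 18.9 and Map1lc3a at 17.1. Per kilobase of the longest transcript these were 37.1, 26.2 and 18.1 CPM, so the closeness depends on the length used.

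Gabarap, Gabarapl1 and Gabarapl2 together made up 77.3% of ATG8 counts and 89.1% of the summed ATG8 level per kilobase. Gabarap stood 9.49 times above Map1lc3b per kilobase (9.11 to 9.89), but 2.33 times by counts alone, and 2.04 times above Gabarapl1 (1.96 to 2.12). Map1lc3b and Map1lc3a differed by 7.61 times in counts and by 1.2 times per kilobase (1.08 to 1.32), or 2.04 times per kilobase of the longest transcript. For Gabarapl2, 14.9% of transcript windows occurred in other genes, and for Gabarapl1 28.3% of exonic bases were overlapped by 1700101I11Rik on the opposite strand. Gabarap had neither.

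The ATG4 proteases, which trim new ATG8 proteins and release them from membranes again, had the lowest median of the roles, 3.81 CPM per kilobase over 3 detected genes. None of these 3 reached the median level per kilobase of all exons. With Atg4a, listed at 0, they summed to 1.82% of the autophagy counts. Atg4b, the isoform known to act on most ATG8 proteins (chromosome 1, 93751500 to 93790610, plus strand), led with 1233 counts, or 58.0 CPM (54.8 to 61.3). By CPM Atg4b lay above the median entry of 37.9. Per kilobase of the longest transcript it came to 13.85 CPM, a length for which no median over all entries was computed. Per kilobase it stood 1.84 times above Atg4d (1.67 to 2.03) and 2.85 times above Atg4c (2.43 to 3.36), which had 588 and 175 counts. With the longest transcript as the length these ratios were 2.98 and 5.35. Of the exonic bases of Atg4d, 19.3% are overlapped by Kri1 on the opposite strand. Kri1 was listed with 875 counts, and the part of this overlap in the level of Atg4d was not tested. Atg4a (chromosome X, 140956907 to 141164270, plus strand) was listed at 0. Of the Atg4a transcript windows, 56.0% were also found in other transcripts, chiefly of the pseudogene Atg4a-ps, which was listed with 38 counts. The part of these shared windows in the 0 was not tested.

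The conjugation enzymes ranged from the median upward and downward without a high member. Atg7 activates Atg12 and the ATG8 proteins, Atg10 and Atg3 pass them on, and the Atg12, Atg5 and Atg16l1 complex directs the last step. All 7 genes had at least 10 counts, none reached 100 CPM, and 3 lay above the median level per kilobase (Atg5, Atg3 and Atg12, at 20.4, 14.3 and 10.5 CPM per kilobase). Atg7, the activating enzyme, had 949 counts, or 44.6 CPM (41.8 to 47.5), and 6.4 CPM per kilobase. Atg16l1 stood at 5.94 CPM per kilobase, 2.56 times above its paralog Atg16l2 (2.29 to 2.87), or 5.01 times with the longest transcript as the length. The lowest was Atg10, with 81 counts, or 3.81 CPM (3.02 to 4.73). Atg3, the other enzyme that passes on an activated protein, had 962 counts, or 45.2 CPM (42.4 to 48.2). No base or window of Atg10 or Atg3 was shared.

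Some conjugation genes carry an E-box near a RefSeq start, the letters CACGTG that MYC and the lysosomal regulators TFEB and TFE3 are known to bind. The letters read the same on both strands. They were sought in RefSeq windows (GRCm38.p6) from 250 bases before to 50 after each start, which 34 of the 42 genes had. They were found in 5 of the 34 (14.7%) and in 8.09% of 27025 genes with a window. Of 5 conjugation genes with a window, 3 held them, and Atg14 and Bnip3 were the other 2 genes. The stretches of 30 bases are shown, with the E-box in capitals, so that its flanks can be compared.
Atg3 (chr16:45158723-45158752, plus strand): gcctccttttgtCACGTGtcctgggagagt
Atg3 (chr16:45158746-45158775, plus strand): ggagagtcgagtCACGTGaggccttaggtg
Atg7 (chr6:114670952-114670981, plus strand): catattggtggtCACGTGtgcagtaagtga
Atg5 (chr10:44268313-44268342, plus strand): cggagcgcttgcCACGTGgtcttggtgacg
Atg14 (chr14:47568418-47568447, minus strand): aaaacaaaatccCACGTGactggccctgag
Bnip3 (chr7:138909597-138909626, minus strand): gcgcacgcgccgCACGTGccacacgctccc
Counted from the RefSeq start of the window, Atg3 holds the letters at 94 and 71 bases before, Atg7 at 132, Bnip3 at 108, Atg5 at 14 and Atg14 at 1. For Atg3, Atg7, Atg14 and Bnip3 that start lies inside the gene as annotated by GENCODE. Atg3 and Atg7 begin at 45158785 and 114643097 (plus strand), and Atg14 and Bnip3 at 47570649 and 138909519 (minus strand). Which start these cells use was not tested. The longer form TCACGTG occurs, on one strand or the other, in both Atg3 stretches and in those of Atg7 and Atg14. The genes with the letters ranged from 6.4 CPM per kilobase for Atg7 to 20.4 for Atg5. These 2 ends lay above 43.7% and 75.1% of entries with at least 10 counts. A match describes the letters only. Tfe3 stood at 115 CPM (110.1 to 119) and 12.4 CPM per kilobase and Tfeb at 21.3 CPM (19.4 to 23.3) and 3.76 CPM per kilobase.

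In the initiation complex, the kinase Ulk1 was above its paralog Ulk2. Ulk1 (chromosome 5, 110784488 to 110810097, minus strand) had 1739 counts, or 81.8 CPM (78.0 to 85.7), and Ulk2 426 counts, or 20.0 CPM (18.2 to 22.02). The ratio per kilobase was 3.76 (3.38 to 4.19). The small subunit Atg101, which steadies Atg13, was the highest of the complex per kilobase at 49.4 CPM, and the fourth of all 39 autophagy genes. Its partner Atg13 stood at 20.3 CPM per kilobase. Rb1cc1 (FIP200), the scaffold, had the most counts of the complex, 2291 or 108 CPM (103 to 112), spread over 14690 exonic bases, which gave 7.33 CPM per kilobase.

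The VPS34 lipid kinase complex makes the phosphoinositide that recruits later proteins. Its subunits lay on both sides of the median entry, from 3.46 to 14.2 CPM per kilobase. All 6 genes had at least 10 counts, none reached 100 CPM, and 3 were above the median level per kilobase. The catalytic subunit Pik3c3 (VPS34) and its regulator Pik3r4 were the lowest, with 485 and 711 counts, or 5.11 and 3.46 CPM per kilobase. The regulators Ambra1 and Becn1 were higher, at 14.2 and 11.3 CPM per kilobase. Becn1 shares 43.9% of its exonic bases with Cntd1 on the opposite strand, which was listed at 0, and the part of this overlap was not tested. Atg14 and Uvrag, which bind Becn1 in separate complexes for autophagosome formation and for endosome traffic, had 825 and 1353 counts. Of the exonic bases of Uvrag, 17.6% are overlapped by Gm45187 on the opposite strand, and the part of this overlap was not tested. Per kilobase of all exons Atg14 stood 1.27 times above Uvrag (1.17 to 1.39), per kilobase of the longest transcript 0.843 times as high, and by counts 0.61 times, so their order depends on the length used.

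Among the membrane supply genes, Wipi2 stood well above Wipi1, and Atg9a well above Atg9b. Wipi2, which reads the phosphoinositide and brings in the Atg16l1 complex (chromosome 5, 142627698 to 142670588, plus strand), was listed with 8103 counts, which is 381 CPM (373 to 389), the most counts after Sqstm1. Its paralog Wipi1 had 546 counts, or 25.7 CPM (23.6 to 27.9), and Wipi2 stood 6.21 times above it per kilobase (5.69 to 6.78), or 9.58 times with the longest transcript. The lipid scramblase Atg9a stood 9.14 times above Atg9b per kilobase (7.71 to 10.9), with 1908 and 143 counts. Of the exonic bases of Atg9a, 32.6% are overlapped by other genes, among them Ankzf1 with 484 counts, and the part of those reads was not tested.

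Of the lipid transfer proteins Atg2a and Atg2b, only the latter had counts. Atg2b (chromosome 12, 105616136 to 105685211, minus strand) had 4281 counts, or 201 CPM (195 to 207). Atg2a (chromosome 19, 6241668 to 6262335, plus strand) was listed at 0. Epg5, which tethers autophagosomes to lysosomes, was the other large gene at 0. Neither Atg2a nor Epg5 shares a transcript window or an exonic base with another gene. The respiratory genes Atp5a1 and Uqcrc1, which every cell with mitochondria uses, were also listed at 0, as were 36.6% of all entries. A listed 0 is therefore given as the deposited value and not as absence of the transcript, and no fold is drawn from it.

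**Figure D3:**
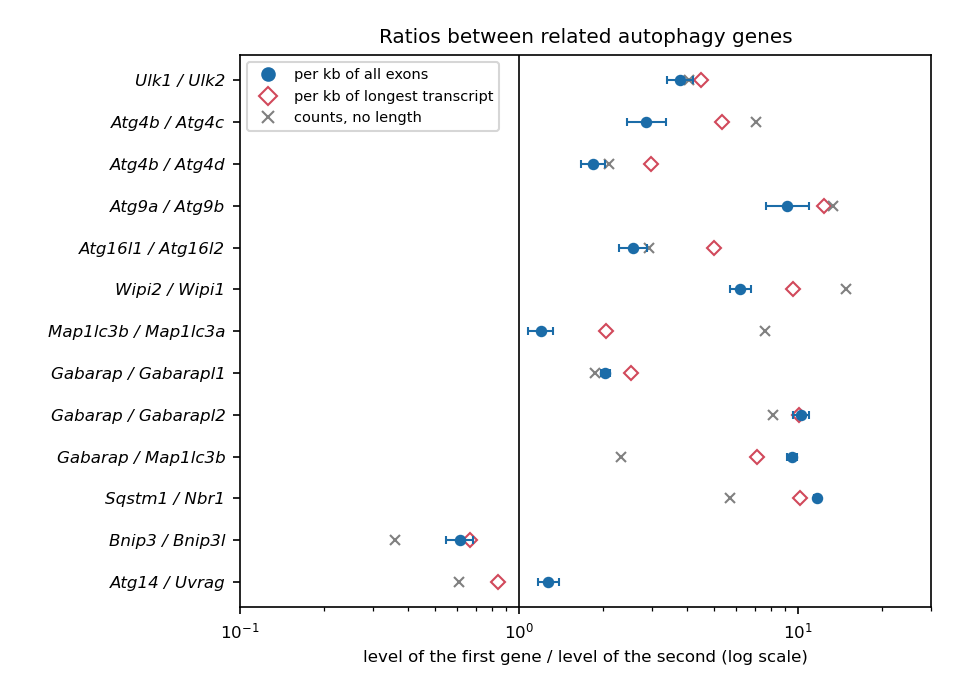
Ratios between 13 pairs of related autophagy genes with counts in both on a log axis, per kilobase of all exons (circles, with exact binomial 95% intervals), per kilobase of the longest transcript (diamonds) and by counts (crosses). Per kilobase of all exons the first gene is higher in 12 of 13 pairs, and the Atg14 and Uvrag pair lies on both sides of 1. Which gene comes first was chosen with earlier results of these data known, so this tally is no finding of its own.

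**Figure D4:**
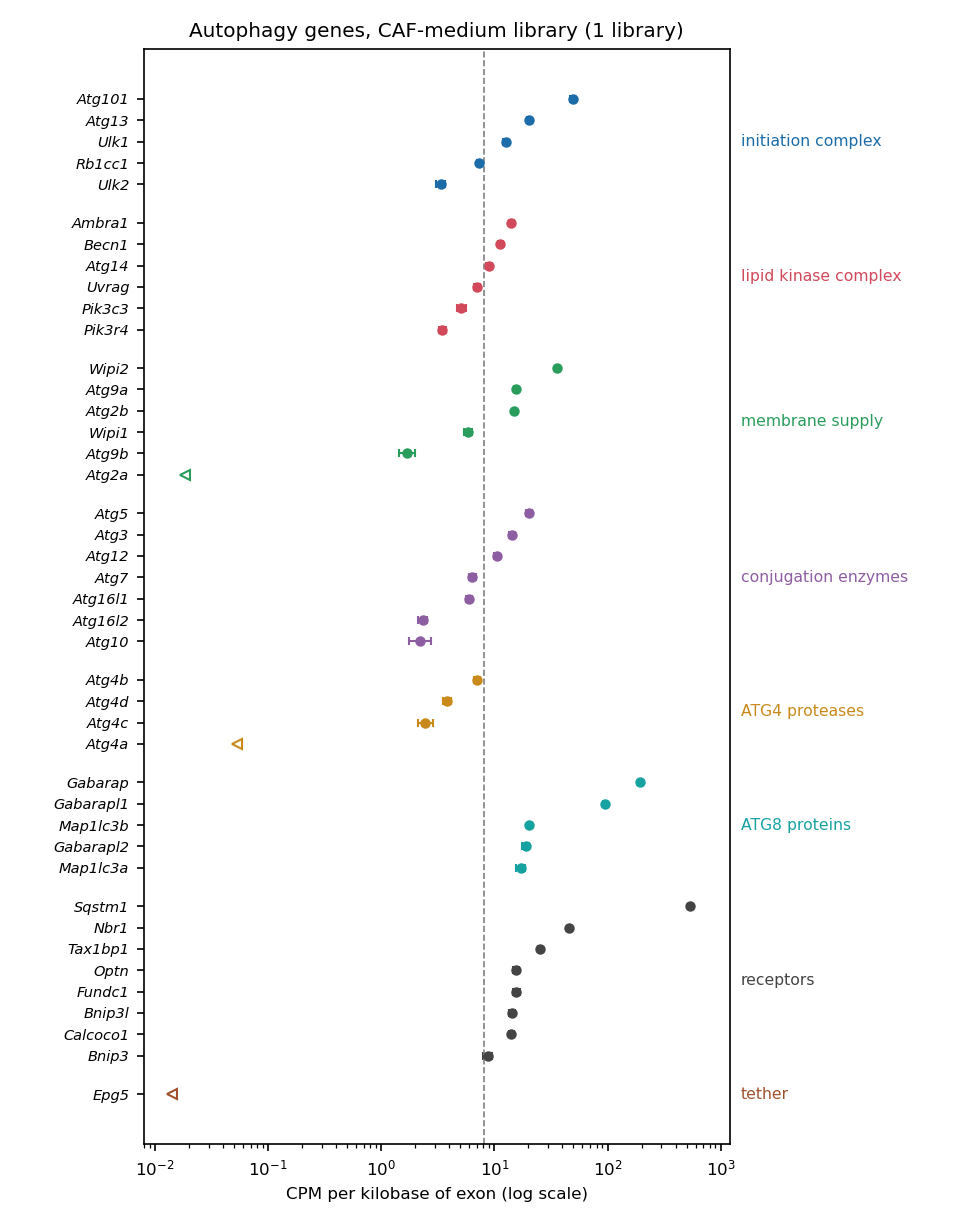
Levels of all 42 autophagy genes in CPM per kilobase of exon (log scale), by role, with exact Poisson 95% intervals that are often narrower than the point. Open triangles stand at the level of 3 counts for Atg2a, Atg4a and Epg5, which were listed at 0. The dashed line is the median entry at 8.14, and Sqstm1 stands at 531.

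Ordered per kilobase of all exons, the genes separated at the top and ran together in the middle. Sqstm1, Gabarap, Gabarapl1, Atg101, Nbr1, Wipi2 and Tax1bp1 led, each with an interval clear of the next. Between 14 and 21 CPM per kilobase lay 13 genes, from Map1lc3b down to Calcoco1. Per kilobase of the longest transcript the same genes spread more widely, from 16.65 CPM for Ambra1 to 37.1 for Map1lc3b. Of the 38 neighbouring pairs in the order, 25 had overlapping intervals. Overlap of separate intervals does not show that such neighbours cannot be told apart, and their ratios were not tested. With the longest transcript as the length, Sqstm1, Gabarap and Gabarapl1 still led, at 666, 264 and 105 CPM per kilobase. Wipi2, Nbr1 and Atg101 then came next in that order, at 73.7, 65.3 and 62.1.

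A further 46 genes of the pathway, covering fusion with the lysosome, other receptors and regulators, had a similar median. At least 10 counts were listed for 39, with a median of 12.4 CPM per kilobase, and 25 of the 39 lay above the median entry. The highest per kilobase were Phb2, a mitochondrial inner membrane receptor, at 135 CPM, the fusion SNARE Ykt6 at 93.1 and the endoplasmic reticulum receptors Sec62 and Rtn3 at 79.5 and 70.1. Vmp1, a scramblase of the endoplasmic reticulum, and Retreg1, a receptor for its sheets, stood at 69.0 and 38.6 CPM per kilobase. Listed at 0 were Vamp8, Nrbf2, Calcoco2 and Dapk1, and 61.8% of the transcript windows of Nrbf2 were shared. Pink1, a kinase that marks damaged mitochondria for removal, had 946 counts, or 44.5 CPM (41.7 to 47.4).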

How the data were processed

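RNA of 14837 cells was sequenced, 1 library per medium. The deposited values are whole-number counts per gene symbol made by the authors. The submitters' processing notes name HISAT2 2.1.0, StringTie and mm10, with no role for each. How counts were made, with which strand setting and annotation, and what was done with reads of several matches is not given in the sources used here. Of 2 value columns, 1 matched no library and was not used, so the planned difference between the media was not computed.

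Counts were divided by the library total to give CPM, and by kilobases of all exons from GENCODE M21 (GRCm38), to which 99.6% of symbols matched. Intervals are exact Poisson (levels) or exact binomial (ratios), checked on simulated counts. They cover counting error only, since reads can be copies of 1 molecule. Among counts from 12 to 59, 40.5% were multiples of 3 (33.3% of whole numbers are), so low counts may not be plain read numbers and intervals may be too narrow. Shared windows are 64-base stretches, every 16 bases of the longest transcript, found exactly on either strand in transcripts of genes elsewhere. Exonic overlap counts other genes on either strand. The minimum was 10 counts. Every one of the 42 genes is named or counted. Of the other pathway genes, the 6 highest and those at 0 are named. Pink1, Tfe3 and Tfeb were added after their values were seen. The genes, lists and E-box were chosen with earlier results of these data known. Computation used scipy 1.17.1 and numpy 2.4.6 under Python 3.11.15, with tables in pandas 2.3.3 and plots in matplotlib 3.10.9.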

Additional observations from a re-analysis of the deposited data

How the results depend on the processing

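Without the mitochondrial genome's genes in the total, the summed level of the autophagy genes was 5217 CPM, against 5161 CPM as reported, and with protein-coding genes only it was 5184 CPM. The count at or above 100 CPM was 9 under each. The median of 58.0 CPM was 56.1 when no minimum applied, 58.2 when 100 counts were required, and 57.6 both without Sqstm1 and without genes that share windows or exonic bases by 10% or more. Per kilobase it was 14.1 CPM. Places above or below the median level per kilobase were read with the length of all exons, and not of the longest transcript. The median over all entries moved far more with the minimum, from 37.9 CPM to 0.94 with none and 50.9 with 100 counts. Which gene of a pair comes first was chosen with earlier results known, so only changes between settings are read here. The first gene was higher in 12 of 13 pairs per kilobase of all exons, and in 11 both per kilobase of the longest transcript and by counts. The change was Atg14 over Uvrag, at 0.843 and 0.61. The sizes were less stable than the order. With the longest transcript 6 of the 13 ratios moved by over 1.5 times, all given beside their values, and by counts 7 did, among them Sqstm1 over Nbr1 at 5.7 and Bnip3 over Bnip3l at 0.36. Lengths from protein sequences were not tried, because no protein table was used here. No paired analysis was possible because each medium had 1 library and 1 column was used. For the same reason no replicate could be left out.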
